A study of Saccharomyces cerevisiae with 8 samples.

Results

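The genes described here build, remodel and monitor the cell wall of budding yeast (Saccharomyces cerevisiae), and their RNA was compared between a wild-type strain and a strain without SUB1. A gene was taken as a member when its array spot carried exactly 1 gene symbol and that symbol was SED1, UTR2, UTH1, NCA3, SIM1, SLT2, MID2, CIS3 or HSP150, or a numbered gene of a wall family such as BGL, SCW, GAS, CHS, KRE, PAU, TIR, WSC, YPS, MNN, PMT, KTR, ALG or GPI. This gave 91 genes on 100 spots, out of 3127 genes on 3344 spots with a single symbol. By role the set held 12 glucan and chitin remodelling enzymes, 23 structural wall mannoproteins, 12 proteins of glucan and chitin synthesis, 7 wall integrity sensors, kinases and yapsins, 26 enzymes of N- and O-mannosylation and 5 of GPI anchor synthesis. The other 6 (KRE33, PST2, TOS2, TOS3, TOS7 and TOS8) share a name stem with wall genes but are not wall components by their known role, or have a role that is not established as one, and were kept as members because the symbol chose them.

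The yeast wall is a mesh of beta-glucan with a smaller amount of chitin, covered by heavily mannosylated proteins. Glucan and chitin are made at the plasma membrane by synthases, and secreted glucanases, glucanosyltransferases and chitinase then trim and join the polymers as the bud grows and the daughter cell separates. Mannoproteins receive N-linked and O-linked mannose in the endoplasmic reticulum and Golgi, and many reach the wall through a GPI lipid anchor. Sensors of the WSC and MID2/MTL1 families report wall stress to a protein kinase cascade that ends in Slt2, which induces wall genes.

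Each array compared sub1Δ RNA directly with wild-type (yPH500) RNA, one labelled with Cy3 and the other with Cy5, on spotted open reading frames. Both strains grew exponentially in YPD medium at 30 °C to an OD600 of 1, and RNA was taken either then, as the untreated condition, or 1 h after 4NQO was added at a labelled dose of 1 µg/µl. The compound 4NQO forms bulky DNA adducts, and Sub1 is the yeast relative of the human coactivator PC4, which binds single-stranded DNA. Each condition had 4 arrays, which were 2 independent experiments with a dye swap of each, so n is 2 experiments throughout and every SD is between 2 dye-swap means. All values below are log2 ratios of sub1Δ over wild type, so that 1 is a doubling in the mutant. The sources used here describe sub1Δ only as a deletion strain and give no number of clones, and no spot carried SUB1 as its single symbol, so the loss of SUB1 could not be checked and the direction of every ratio rests on the labels. RNA of treated cells was never hybridised against RNA of untreated cells, so how a gene's level moved with 4NQO within a strain was not measured, and 4NQO and the further hour of growth cannot be told apart. Ratios of RNA from whole cultures do not distinguish a change in every cell from a change in the share of cells that express a gene.

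The arrays lacked values for between 2 and 43 of the 91 members, that is 2.20% to 47.3%, and the sparsest was the dye swap of 4NQO experiment 2, where 51.5% of all 5999 features had none. A gene was tested in a condition only when all 4 arrays gave a value, which held for 55 members untreated and 42 with 4NQO. In all, 32 members were tested in both conditions, 23 only untreated, 10 only with 4NQO and 26 in neither. The turned arrays of a dye swap correlated across all features with a Pearson r of 0.20, -0.20, 0.26 and 0.33 for untreated experiments 1 and 2 and 4NQO experiments 1 and 2. The negative value, from untreated experiment 2, came with a Spearman rho of 0.05, and results are given below without that array where it changes a call. The 2 experiments correlated with r = 0.14 untreated and 0.51 with 4NQO. The number of arrays, the missing values and the disagreement between the arrays of a swap limit the precision of what follows.

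After 4NQO, 4 wall genes were higher in sub1Δ than in wild type and 3 were lower. The 4 higher genes were BGL2, EXG1, CCW12 and YGP1: 2 secreted glucan-active enzymes and 2 secreted wall glycoproteins. The 3 lower genes were MNN2, which starts the side branches of mannan, ROT2, which trims glucose from N-glycans, and YPS5, a member of the yapsin protease family. The 7 calls among 42 tested members amount to 16.7%, against 19.5% of the 2194 features tested (9.07% higher and 10.4% lower), so the share of calls in the set was near the background. The test was limma's moderated test on the 4 dye-swap means, 2-sided, with Benjamini-Hochberg adjustment over all tested features. At an unadjusted p under 0.05, 13 of the 42 passed. The median ratio of the 42 members was -0.70, beside -0.56 for all tested features, and 18 members lay above 0. The arrays with 4NQO were not centred on 0, and setting each array's median to 0 moved the median of all features to -0.11 and that of the members to -0.24. Within single experiments the members' median lay above that of all features (-0.13 and -0.30 in experiment 1, -0.48 and -0.73 in experiment 2), so the set had no settled place relative to the other features. With that centring BGL2, EXG1, CCW12 and YGP1 passed and none of the 3 lower genes did.

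**Figure D1:**
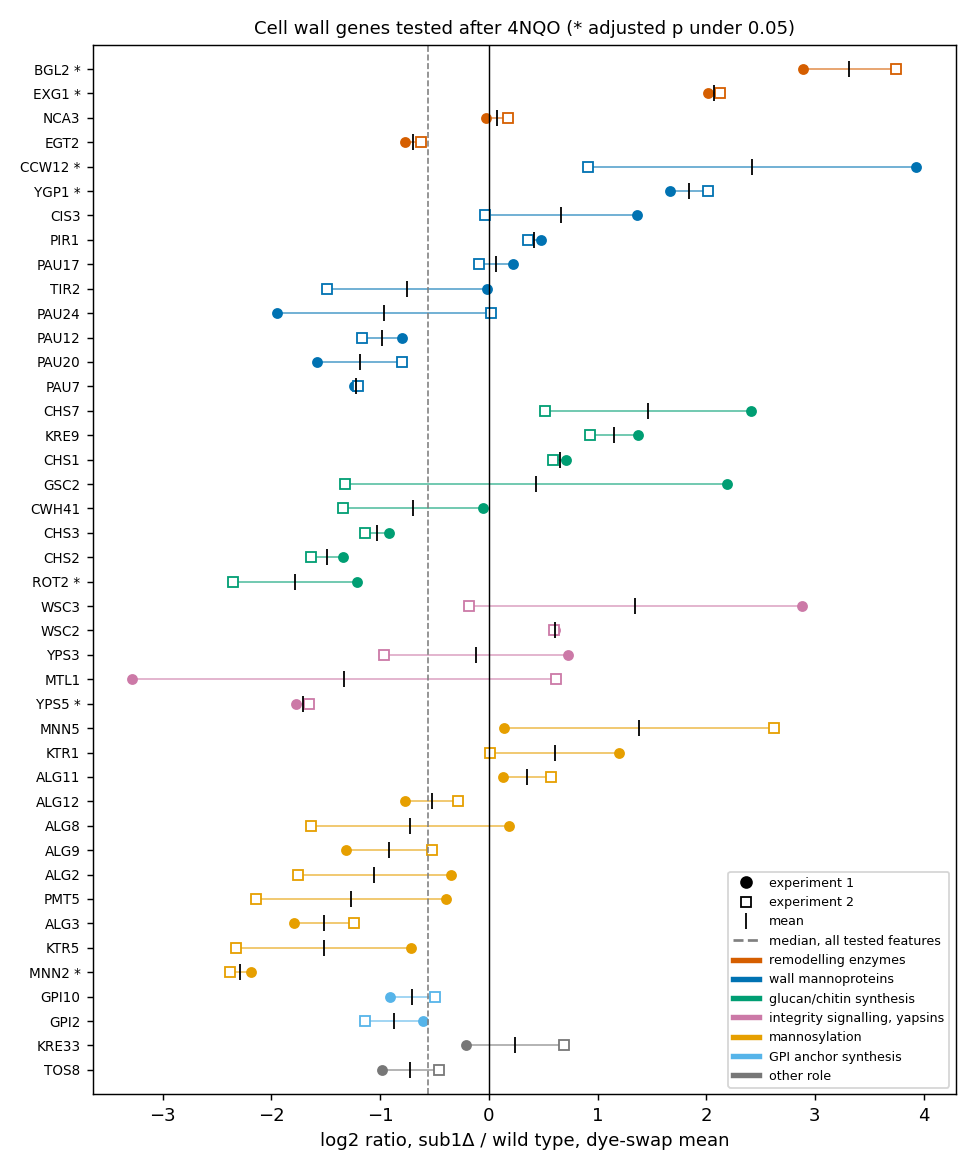
Log2 ratio of sub1Δ over wild type (x axis) for each of the 42 wall genes tested after 4NQO, grouped by role. Filled circles are the dye-swap mean of experiment 1, open squares that of experiment 2, short bars the mean, the dashed line the median of all tested features (-0.56), and asterisks mark an adjusted p under 0.05; BGL2 lies farthest right and MNN2 farthest left by mean, and MTL1, GSC2 and WSC3 have experiments on opposite sides of 0.

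Among the remodelling enzymes, BGL2 (YGR282C), a major wall glucan endo-hydrolase and glucanosyltransferase, gave ratios of 2.11 and 3.67 in experiment 1 and its dye swap after 4NQO, and of 3.54 and 3.95 in experiment 2 and its dye swap. All 4 arrays were thus well above 0. The mean was 3.32 ± 0.60 (SD, n = 2), a 9.97-fold difference with a 95% interval of 1.96 to 4.67 on the log2 scale and an adjusted p of 0.00577 in limma. EXG1 (YLR300W), the major secreted exo-glucanase, read 1.39, 2.64, 2.81 and 1.45 on the same arrays in the same order. It was also above 0 on every array, with a mean of 2.07 ± 0.08 (n = 2), 4.20-fold, and an adjusted p of 0.024. The other 2 enzymes tested did not pass. EGT2, which acts in separation of the daughter cell, read 0.31, -1.86, 0.34 and -1.58, so that its sign followed the dye orientation, and its mean was -0.70 ± 0.11 (adjusted p 0.372). NCA3, of the SUN family, had a mean of 0.08 ± 0.14. Over the 4 tested enzymes, of 12 in the role, 2 were called higher, none lower, and the median was 1.07. Of all features tested with 4NQO, 9.07% were called higher and 10.4% lower, and the median was -0.56.

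A further 4 remodelling enzymes had a value on both unswapped arrays with 4NQO and on neither dye swap, so dye and strain cannot be separated for them. CTS1, the endochitinase of cell separation, read 1.76 and 2.19 in experiments 1 and 2. UTR2, which links chitin to glucan, read 0.85 and 0.97, and SCW4, a glucanase-like wall protein, read 1.32 and 0.13. GAS4, a glucanosyltransferase known from sporulation, read -1.37 and -3.49. Of the remaining members of this role, CRH1, a partner of UTR2 in joining chitin to glucan, read 1.90 in experiment 1 but -1.14 and -1.22 in experiment 2 and its swap. SCW11 read -2.77 and -1.74 in experiment 1 and its swap, with no value in experiment 2. GAS5 read 0.60 and 2.27 in experiment 1 and its swap and 4.83 on the unswapped array of experiment 2. GAS3 had a single value, 0.69, in experiment 1.

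Of the structural mannoproteins, 10 were tested with 4NQO, 2 were higher and none lower. The share called was 20%, near the 19.5% of all tested features. CCW12 (YLR110C), an abundant GPI-anchored wall protein, read 2.84, 5.03, 1.51 and 0.32. Every array was above 0, but experiment 1 (mean 3.93) lay far above experiment 2 (mean 0.92), so the SD of 2.13 was close to the mean of 2.42. The 5.37-fold difference had an adjusted p of 0.0208. YGP1 (YNL160W), a secreted glycoprotein known for its induction when nutrients run short, read 0.74, 2.59, 1.70 and 2.33, with a mean of 1.84 ± 0.25, 3.58-fold, and an adjusted p of 0.0346. Both unswapped and swapped arrays were above 0 in both experiments.

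The other 8 mannoproteins did not pass. The PIR proteins, which are linked to glucan through alkali-labile bonds, gave a mean of 0.42 ± 0.08 for PIR1 and 0.66 ± 0.99 for CIS3. The seripauperins of the PAU family, whose near-identical genes are known for expression in anaerobic and cold-stressed cells, can bind each other's spots and are given together: 5 tested members ranged from -1.22 (PAU7) to 0.06 (PAU17), with 4 below 0 and none called. PAU24 shows how far spots could differ within a gene, since its spots read -4.84 and 0.82 on the unswapped array of 4NQO experiment 1. Of the related TIR and DAN genes only TIR2 was tested, at -0.75 ± 1.05. TIR4 read -6.18 and -3.34 on the unswapped arrays and had no value on the swaps. SED1, a stress-related GPI-anchored wall protein, read 2.24 and 1.57 on the unswapped arrays, again with no value on the swaps. The only FLO gene on a single-symbol spot, the flocculin FLO10, had no untreated value, and its 3 values with 4NQO ran from -5.66 to -0.71.

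In glucan and chitin synthesis, 8 members were tested with 4NQO and ROT2 was the single call (12.5%, beside 19.5% of all tested features). ROT2 (YBR229C), the catalytic subunit of glucosidase II that is needed for normal glucan, read 0.61, -3.03, -2.66 and -2.05, with a mean of -1.78 ± 0.81, 3.44-fold lower, and an adjusted p of 0.0431. One of its 4 arrays was above 0. Its untreated values were 2.24, -8.10 and 2.03, with none on the swap of experiment 2, so the arrays of experiment 1 disagreed in sign and the gene was not tested there. CWH41, the glucosidase that acts just before ROT2 on the same glycans, had a mean of -0.70 ± 0.91 with 4NQO (adjusted p 0.374).

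The chitin synthases differed among themselves in sign after 4NQO, and none passed. CHS2, which makes the primary septum, read -1.03, -1.64, -2.11 and -1.17, below 0 on every array, with a mean of -1.49 ± 0.21 and an adjusted p of 0.0663. CHS3, the synthase of most wall chitin, read -0.14, -1.69, -0.59 and -1.69 (mean -1.03 ± 0.16, adjusted p 0.183). CHS1, which repairs the wall at separation, had a mean of 0.65 ± 0.09 (adjusted p 0.388). CHS7, which escorts Chs3 out of the endoplasmic reticulum, read 2.23, 2.59, -0.06 and 1.09. Its mean was 1.46 ± 1.34 with an adjusted p of 0.0862, experiment 1 being higher than experiment 2. KRE9, needed for beta-glucan side branches, read 1.01, 1.74, -0.81 and 2.67, with a mean of 1.15 ± 0.31 (adjusted p 0.14). GSC2, the stress-induced subunit of glucan synthase, read 1.73 and 2.65 in experiment 1 and -1.85 and -0.80 in experiment 2, so the experiments fell on opposite sides of 0.

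Of the wall integrity group, YPS5 (YGL259W) read -1.82, -1.72, -1.91 and -1.39 with 4NQO, the tightest set of 4 arrays among the 7 called genes. The mean was -1.71 ± 0.08, 3.28-fold lower, with an adjusted p of 0.045. With array medians centred it was -1.26 (adjusted p 0.164 in limma), and YPS5 passed in none of 11 alternative gene-level settings. The 2 untreated values of YPS5, -1.68 and -0.77 in experiment 2 and its swap, were also below 0. The yapsin YPS3 had a mean of -0.12 ± 1.20, and YPS1, the yapsin that sheds wall surface proteins, read 3.55 and 0.01 on the unswapped arrays and had no value on the swaps. The sensor WSC2 had a mean of 0.60 with dye-swap means of 0.61 and 0.60, although its arrays ran from -0.91 to 2.11. For WSC3 the values were 0.58, 5.20, 0.55 and -0.92 (mean 1.35 ± 2.17, adjusted p 0.171), and for MTL1 -4.02, -2.54, -2.22 and 3.45 (mean -1.33 ± 2.76, adjusted p 0.184). Both genes had 2 spots that disagreed by several log2 units on single arrays, and neither sensor could be given a direction. MKK1, a kinase of the cascade above Slt2, had a single value with 4NQO, -0.58. The kinases Slt2 and Bck1 and the factor Rlm1 had no spot with a single symbol among the members.

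Mannosylation was the role with the lowest median after 4NQO among those with at least 4 tested genes: 8 of 11 lay below 0, the median was -0.92, and 1 was called. That call was 9.09% of the tested genes of the role, beside 19.5% of all tested features. MNN2 (YBR015C) read -2.26, -2.12, -3.53 and -1.23, all below 0, with a mean of -2.29 ± 0.14, 4.87-fold lower, and an adjusted p of 0.0141. MNN5, which extends the branches that MNN2 begins, read -1.42, 1.71, 3.41 and 1.85, with a mean of 1.38 ± 1.76 (adjusted p 0.125), and so did not share the sign of MNN2. ALG3, a mannosyltransferase of the lipid-linked N-glycan precursor, read -1.40, -2.19, -1.50 and -0.98 (mean -1.52 ± 0.39, adjusted p 0.0781). Its 2 spots disagreed on the unswapped array of 4NQO experiment 1, at 0.08 and -2.88, and only the lower spot gave a value on the swap. KTR5, a putative mannosyltransferase, read 1.09, -2.52, -1.92 and -2.73 (mean -1.52 ± 1.14, adjusted p 0.0828). ALG2, another precursor enzyme, had a mean of -1.05 ± 1.00. Relative to the median of all features the mannosylation genes lay 0.36 lower, and 4 of the 11 were above it. With the array medians centred their median was -0.46, with 8 still below 0, and none passed.

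GPI anchor synthesis had 2 tested members with 4NQO. GPI10, a mannosyltransferase of the anchor, read -0.92, -0.91, -0.55 and -0.44, and GPI2, part of the first enzyme of the route, read -0.69, -0.52, -1.95 and -0.33. Both were below 0 on every array, with means of -0.70 ± 0.30 and -0.87 ± 0.38, and neither passed (adjusted p 0.359 and 0.261). With array medians centred, the means were -0.25 and -0.42. As deposited, 1459 of the 2194 features tested with 4NQO had a mean below 0. The transamidase subunit GPI8 was not tested, and 1 of its values, -11.06 on the swap of 4NQO experiment 1, was the lowest member value on any array. Among the genes with other roles, the ribosomal RNA acetyltransferase KRE33 had a mean of 0.24 ± 0.64 and the homeodomain protein TOS8 a mean of -0.72 ± 0.37.

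Sign agreement over all 4 arrays with 4NQO was found for 15 of the 42 members (35.7%), 4 above 0 and 11 below, against 38.6% of all tested features. Of those features, 289 lay above 0 and 557 below. The dye-swap means of the experiments had the same sign for 32 of 42 (76.2%), against 74.8% of all features. None of the 7 calls remained when 1 array could stand for a dye swap, without the sparsest array, without the swap of untreated experiment 2, or when swaps were taken as already turned, and with 4NQO fitted alone only BGL2 passed (adjusted p 0.0241). When only features on all 8 arrays were tested, BGL2, CCW12, EXG1 and MNN2 kept their ratios with adjusted p from 0.0575 to 0.0757, and ROT2, YGP1 and YPS5 could not be tested.

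**Figure D2:**
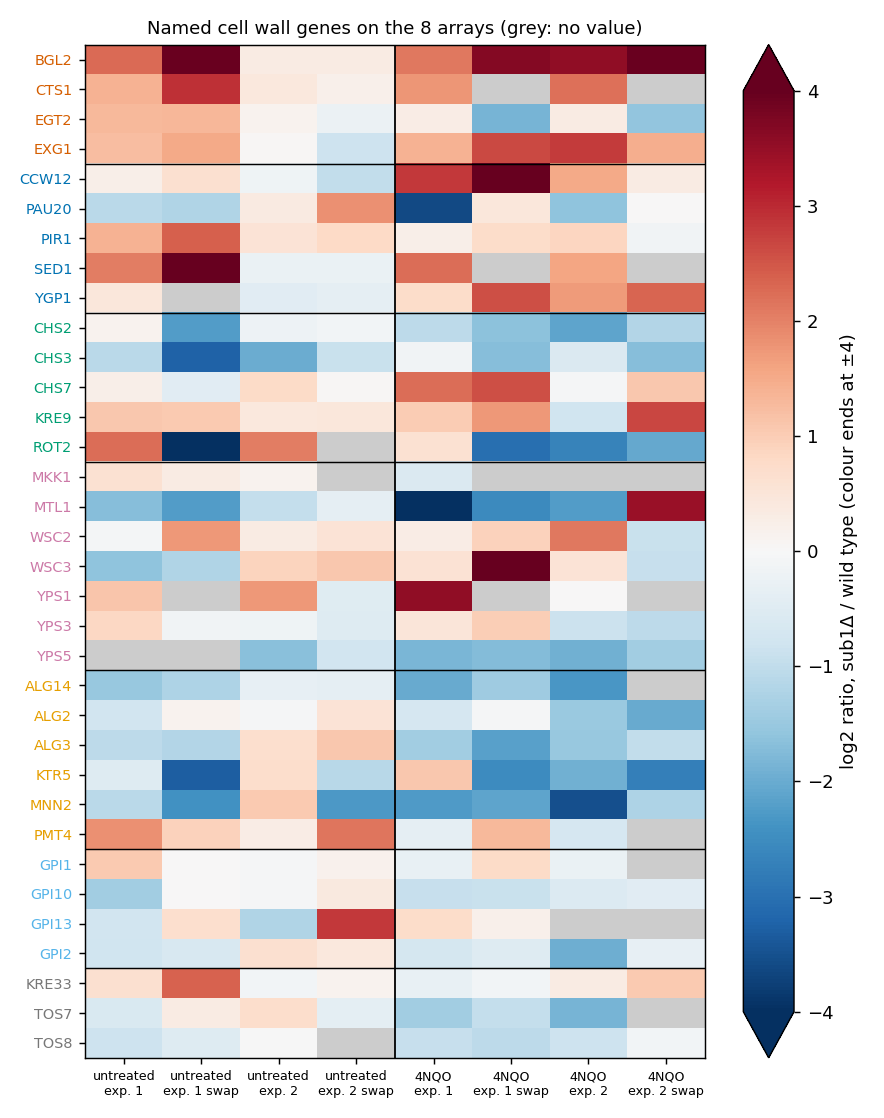
Log2 ratio of sub1Δ over wild type on each of the 8 arrays (columns) for the named wall genes (rows, grouped by role with horizontal lines; gene names coloured by role). Red is above 0, blue below, grey no value, and colours end at ±4. Values are shown without centring the arrays. BGL2 is red on all 8 arrays and CHS3 blue on all 8, while SED1 and CTS1 lack both dye swaps with 4NQO.

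In untreated cells no wall gene passed the test. BGL2 had the largest mean ratio, 1.71 ± 1.97 (n = 2), and CHS3 the lowest, -1.79 ± 0.50. Of all 3457 features tested untreated 1 passed (0.0289%), and of the 55 members none. At an unadjusted p under 0.05 the counts were 4 of 55 members and 198 of 3457 features. The members' median was 0.10, beside 0.02 for all features, and 29 of 55 were above 0.

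CHS3 (YBR023C) read -1.07, -3.22, -1.97 and -0.90 in experiment 1, its swap, experiment 2 and its swap. It was below 0 on every untreated array as well as on every array with 4NQO. The arrays with 4NQO had medians of -0.14, -0.49, -0.54 and -0.66 over all spots, where CHS3 read -0.14, -1.69, -0.59 and -1.69. With array medians centred, the CHS3 mean with 4NQO was -0.57. The untreated adjusted p of CHS3 was 0.386, the smallest among the members. Next below 0 came MTL1 with -1.31 ± 0.93, MNN2 with -1.19 ± 0.80, KTR5 with -1.06 ± 1.21 and ALG14, part of an early N-glycan precursor transferase, with -0.86 ± 0.73. MNN2 read -1.09, -2.42, 1.03 and -2.29, so 1 array was above 0, whereas ALG14 was below 0 on all 4 untreated arrays (-1.53, -1.23, -0.34 and -0.35) and on the 3 arrays with 4NQO that gave a value.

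PMT4, an O-mannosyltransferase of the endoplasmic reticulum, read 1.84, 0.93, 0.29 and 2.14 untreated, with a mean of 1.30 ± 0.12 and an adjusted p of 0.796. Its 3 values with 4NQO were -0.35, 1.30 and -0.67. PIR1 read 1.38, 2.38, 0.54 and 0.81 (mean 1.28 ± 0.85), above 0 on all 4 arrays. KRE9 read 1.07, 1.05, 0.43 and 0.46 (mean 0.75 ± 0.44), again above 0 on all 4. WSC2 had a mean of 0.63 ± 0.28. GPI1 and GPI13, enzymes at the start and near the end of anchor synthesis, had means of 0.30 ± 0.33 and 0.39 ± 0.61.

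The remodelling enzymes differed between the untreated experiments. All 6 tested (BGL2, CTS1, EGT2, EXG1, GAS5 and UTR2) had a mean above 0, with a median of 0.64, and none passed. In experiment 1 all 6 dye-swap means were above 0, from 0.63 to 3.11 with a median of 1.53. In experiment 2 they ran from -0.43 to 0.32 with a median of -0.22, and 2 of the 6 were above 0. BGL2 read 2.26 and 3.96 in experiment 1 and its swap but 0.31 and 0.32 in experiment 2, and CTS1 read 1.40 and 2.92 against 0.43 and 0.21. EXG1 read 1.24 and 1.52 against 0.05 and -0.82. SED1, outside this role, behaved alike with 2.05 and 3.99 in experiment 1 and -0.27 and -0.26 in experiment 2, which gave a mean of 1.38 ± 2.32. The median of all 55 members was 0.10 in experiment 1 and 0.01 in experiment 2, but a median cannot show a difference in spread. The 55 members ran from -2.15 to 3.11 in experiment 1 and from -1.44 to 1.21 in experiment 2. Whether the gap was particular to the remodelling enzymes was not tested. BGL2 and CTS1 were above 0 on all 4 untreated arrays, while the means of EGT2, EXG1, GAS5 and UTR2 were above 0 in experiment 1 and below 0 in experiment 2.

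**Figure D3:**
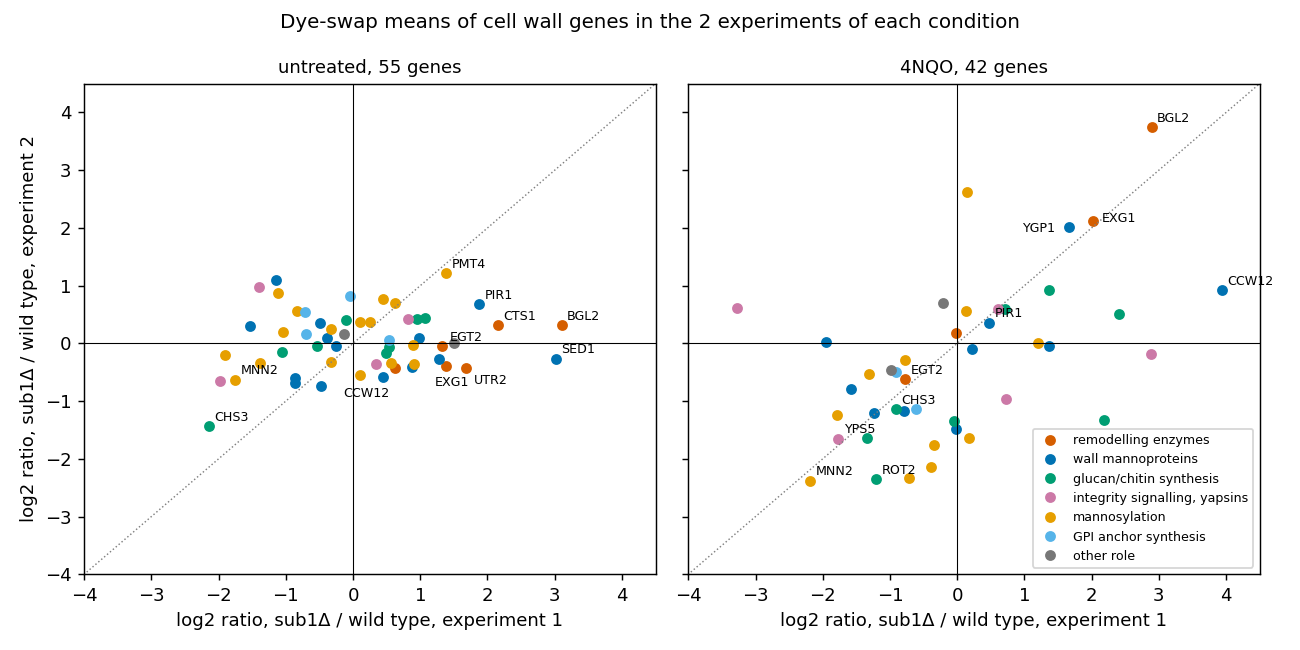
Dye-swap mean log2 ratio of sub1Δ over wild type in experiment 1 (x axis) against experiment 2 (y axis), for the 55 wall genes tested untreated (left) and the 42 tested with 4NQO (right), coloured by role, with the diagonal dotted. Untreated remodelling enzymes spread along the x axis near 0 on the y axis, and with 4NQO BGL2, EXG1, YGP1 and MNN2 lie near the diagonal while CCW12 lies below it.

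All 4 untreated arrays had the same sign for 11 of 55 members (20.0%), 7 above 0 and 4 below, against 19.6% of all tested features. The experiments shared a sign for 26 of 55 members (47.3%), against 54.6% of all features. No member passed untreated under any of the alternative settings run.

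Of the 32 members tested in both conditions, 28 had the same sign in each (87.5%), against 66.3% of 1654 features, and 25 lay farther from 0 with 4NQO (78.1%), against 77.1%. No treated and untreated array shares RNA. Across all features untreated experiment 1 correlated with 4NQO experiments 1 and 2 with r = 0.50 and 0.37, and untreated experiment 2 with r = 0.18 and 0.12, and the sources used here do not say whether equally numbered experiments came from the same cultures. The 4 genes whose sign differed were CCW12, CWH41, EGT2 and WSC3. Which genes differ depends on the scaling, because several untreated means lie near 0: with array medians centred the count was 25 of 32 (78.1%, all features 67.2%), CCW12 no longer differed, and ALG2, GPI2, PAU12 and PAU20 did. CCW12 averaged -0.07 ± 0.73 untreated, with arrays from -0.99 to 0.64, and 2.42 with 4NQO. CHS3 was among the members nearer to 0 with 4NQO, at -1.03 beside -1.79 untreated. PIR1 likewise stood at 0.42 with 4NQO and 1.28 untreated. YGP1 could not be compared by the test, because 1 untreated array gave no value, and its other untreated values were 0.47, -0.45 and -0.37, below its lowest array with 4NQO (0.74).

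**Figure D4:**
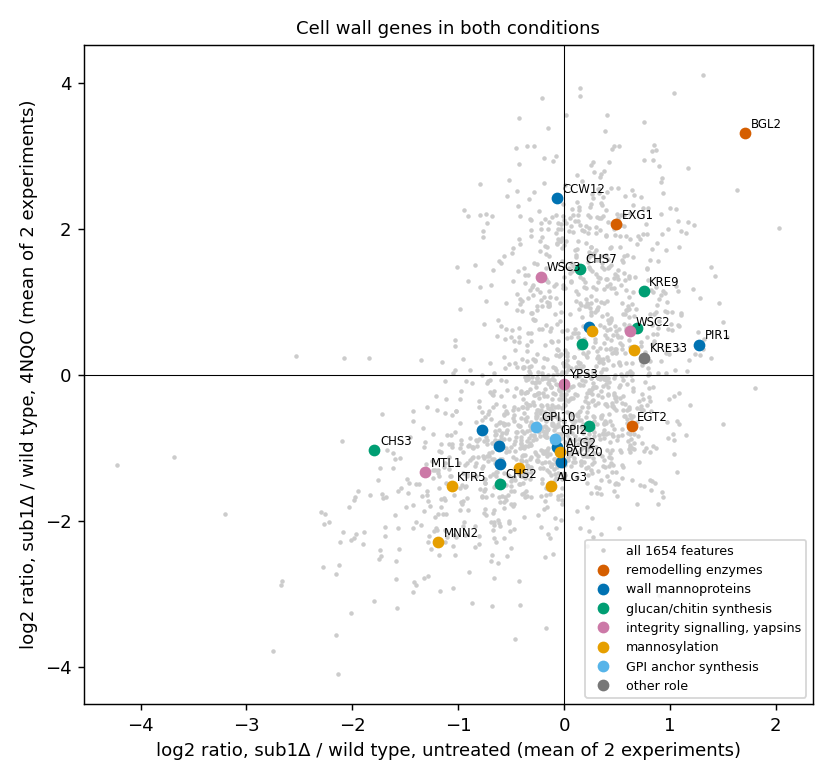
Mean log2 ratio of sub1Δ over wild type in untreated cells (x axis) against that with 4NQO (y axis), for the 32 wall genes tested in both conditions (coloured by role) and all 1654 such features (grey). BGL2 stands at 1.71 and 3.32, CCW12 and EXG1 lie high with 4NQO (untreated means -0.07 and 0.49), and MNN2 lies lowest among the wall genes.

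The difference between the strain ratio with 4NQO and the strain ratio untreated was tested as a contrast in the same limma fit. It passed for none of the 32 members and for 0% of the 1654 features, with 1 member and 226 features at an unadjusted p under 0.05. That member was CCW12, whose strain ratio was 2.49 higher on the log2 scale with 4NQO (95% interval 0.53 to 4.46, adjusted p 0.295). The CCW12 difference was 4.00 (adjusted p 0.00925) without 4NQO experiment 2 and 0.99 (adjusted p 0.581) without 4NQO experiment 1, and in both cases the lone 4NQO experiment is assumed to vary like the untreated ones. The next largest positive differences by p were EXG1 at 1.58 (interval -0.17 to 3.32), BGL2 at 1.61 (-0.31 to 3.53), CHS7 at 1.31 (-0.46 to 3.09) and WSC3 at 1.56 (-0.55 to 3.67). The negative ones were ALG3 at -1.40, EGT2 at -1.34, PAU20 at -1.16, MNN2 at -1.09 and ALG2 at -1.02, each with an interval that included 0. The intervals of BGL2 and EXG1 include both 0 and a difference of over 3 log2 units, so these arrays do not settle whether their strain ratio changed with 4NQO.

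A wider list of 60 wall-related genes that the symbol rule did not take, covering Rho1 signalling, sugar nucleotide and mannan synthesis, oligosaccharyltransferase subunits and other GPI proteins, had 34 genes on single-symbol spots. Untreated, 22 of these were tested, 17 lay above 0 with a median of 0.43, and none passed. Of all features tested untreated, 50.8% lay above 0 with a median of 0.02, and 0.0289% passed. With 4NQO, 11 were tested, 7 lay above 0 with a median of 0.30, and none passed. Of all features tested with 4NQO, 33.5% lay above 0 with a median of -0.56, and 19.5% passed. With each spot block centred, 2 of the 11 were called higher with 4NQO, beside 284 of all 2194 features. The 8 tested genes listed under sugar nucleotides and mannan all had a mean above 0 untreated, from 0.0065 to 1.43 with a median of 0.46, and so did the 3 tested with 4NQO. Of the 8, 4 had the same sign on all 4 untreated arrays. For RER2, SEC53 and SEC59 the untreated experiments fell on opposite sides of 0. With 4NQO the SEC59 mean was 0.02, its experiments again on opposite sides of 0.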

How the data were processed

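RNA ratios were measured on 8 two-colour open reading frame arrays. Per the labels and the series' design text, the authors subtracted background, applied LOWESS (smooth parameter 0.33) and deposited a log2 ratio of Cy3 over Cy5 per spot; the submitters' processing notes name GenePix Pro 6.0 and limma 2.12.0. The sources used here state neither whether swaps were turned before deposit nor why spots lack values. Ratios with wild type in Cy3 were multiplied by -1. Spots of a gene were averaged, then the arrays of a swap, both being required. limma 3.58.1 in R 4.3.3 fitted 1 coefficient per condition and their contrast to the 4 dye-swap means (lmFit, eBayes). The p-values were 2-sided and Benjamini-Hochberg adjusted over all tested features at 0.05. The code was run on values simulated from limma's fitted spread, centred on 0 apart from added changes. Such a run cannot show whether the real arrays meet these assumptions. The p-values rest on the spread between labelled experiments, not stated to be separate cultures, and limma drew each gene's spread towards that of all features. This prior had 16.8 degrees of freedom, against 2 from a gene with all its dye-swap means, so a gene's own SD weighed little. With 4NQO the standard error was 0.57 for YPS5 (SD 0.08) and 0.66 for CCW12 (SD 2.13). Symbols were updated through RefSeq identifiers (3343 of 3344 single-symbol spots matched). Another 35 spots carry a wall symbol among several and were not used, since they name no single gene, and 2485 spots carry none.

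Members and lists were chosen with earlier results of these data known. Named genes were the members that passed, up to 5 with the smallest p per direction and comparison, 2 per role and condition, and the sensors, kinases and yapsins; related families with cross-binding spots are given as ranges. Other genes were named after their values were seen. Alternatives changed centring, spread, fit, missing values, swap direction, spot averaging and experiments left out; after seeing the data, the swap of untreated experiment 2 was turned or left out and each spot block centred.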

Additional observations from a re-analysis of the deposited data

Results flagged for a closer look

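The value of CHS2, the septum chitin synthase, on the swap of untreated experiment 1 was -2.24, while its other 3 untreated arrays lay between -0.19 and 0.13. The gap to the nearest array was 0.862 of the whole range, above Dixon's 95% critical value for 4 values. This was 1 such value among 53 sets of 4 arrays examined, and chance gives about 1 in 20. The untreated CHS2 mean of -0.61 ± 0.64 rests on that array.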

How the results depend on the processing

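The 7 member calls with 4NQO became 4 with array medians centred, 3 with arrays scaled to a common spread, 1 with the condition fitted alone, 4 with the swap of untreated experiment 2 alone taken as turned, 6 with spot blocks centred and 11 spots with spots not averaged. They became 0 where 1 array could stand for a swap, with only features on all 8 arrays (3 of the 7 then untested), with swaps taken as already turned, without the sparsest array and without the swap of untreated experiment 2; leaving out 1 experiment gave 1 to 5. All features called with 4NQO (428, 46.5% higher) were 212 centred (92.0% higher), 157 scaled (82.2% higher) and 94 fitted alone, 408 with blocks centred (69.6% higher), 94 to 338 leaving out 1 experiment, and 0 in the same 5 settings. Untreated features (1) were 0 centred, 25 scaled, 42 fitted alone, 8 with spots not averaged, 9 with that swap turned, 3 with blocks centred, 0 in 4 of those 5 settings (1 with all swaps already turned) and 0 to 42 leaving out 1 experiment. For the difference, 13 features passed with that swap turned, 2 with blocks centred and 0 to 53 leaving out 1 experiment, with 0 to 1 members; elsewhere 0. The members' median with 4NQO (-0.70) was -0.24 centred, -0.14 scaled, -0.016 with single arrays allowed, -0.083 with swaps already turned, -0.17 without the sparsest array, -0.10 with blocks centred and -0.70 to 0.021 leaving out 1 experiment; it lay below the median of all features as deposited (-0.56), and above it with single arrays allowed (-0.44), without the sparsest array (-0.48) and without 4NQO experiment 2 (-0.14). Untreated (0.10) it was 0.20, 0.22, 0.21 with blocks centred, -0.033 on complete features, -0.0027 with swaps already turned, 0.20 with that swap turned and -0.40 to 0.10 leaving out 1 experiment. With swaps already turned, BGL2 was -0.49, CCW12 -0.25, ROT2 0.75 and YGP1 -0.62 with 4NQO, none passing. Of 1003 values of named genes, 62 lost a call, 6 gained one and 4 reversed; 102 more turned sign with no call in either setting. BGL2 passed in 9 of 14 gene-level settings (adjusted p 0.000374 to 0.556), CCW12 in 5 of 14, EXG1 in 4 of 14, MNN2 in 3 of 14, YGP1 in 2 of 11, and ROT2 and YPS5 in none of 11, spots not averaged not counted. These settings are not all distinct: leaving out either untreated experiment gave the same 4NQO results as fitting 4NQO alone. The counts of BGL2, CCW12 and MNN2 also include passes where a single 4NQO experiment was left. The experiment number as a replicate block gave 0 members and 0 features for the difference; whether numbers pair cultures is not stated, and deviations of equally numbered experiments correlated with r = 0.0998. The causes were not tested.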
